A study of Mus musculus with 217 samples.

Results

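Axon guidance ligands and receptors are the secreted and membrane proteins with which growing axons read their surroundings. The genes described here are the protein-coding semaphorins of classes 3 to 7, plexins, neuropilins, ephrins, Eph receptors, netrins, netrin-Gs, Dcc, Unc5 receptors, Slits and Robos, chosen by symbol alone. The rule found 72 annotated mouse genes, of which 62 were measured in at least 1 of the 3 deposited tables and 58 in all 3, out of 12270 and 11283 genes of all kinds. DLS held 58 of them, DMS 62 and NAc 61.

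The libraries came from 1 mm tissue punches of the dorsolateral striatum (DLS, 70 libraries), the dorsomedial striatum (DMS, 70) and the nucleus accumbens (NAc, 77). The mice were C57BL/6J males and females of about 10 weeks, with no transgene or drug treatment given in the labels. Lights were on for 12 h and off for 12 h of each day, and tissue was taken at ZT2, ZT6, ZT10, ZT14, ZT18 or ZT22, where Zeitgeber time (ZT) counts hours from lights on. The 217 libraries were of 93 animals, and each region had 11 to 14 libraries at each time. The comparison asks which genes follow a daily rhythm in each subregion, and whether the rhythm differs between subregions and sexes. All 8 medium spiny neuron markers and 5 of 5 clock genes were in each table, and the clock genes were called rhythmic in each region.

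In these families a ligand on one cell or in the matrix binds a receptor on the axon's growth cone. Semaphorins act through plexins, and the secreted class 3 members mostly need a neuropilin as well. Ephrins are membrane-bound and signal to Eph receptors on contact, netrin-1 attracts through Dcc and repels through Unc5 receptors, and Slits repel through Robos. Netrin-Gs are anchored to the axon membrane and bind NGL adhesion proteins at synapses. In the adult brain many of these genes stay expressed and act on spines, synapses and vessels. In the striatum, Sema3e and its receptor Plxnd1 are known for shaping the inputs of direct-pathway neurons.

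Promoter sequences are shown first for the members whose start region held the E-box CACGTG, the site bound by CLOCK and BMAL1, and for Ntng1, the member with the largest fold in DLS and DMS. RefSeq (GRCm38.p6) gave a window of 250 bases before to 50 bases after the start for 53 of the 62 measured members. Of these 53, 3 held the E-box: Epha8, Sema3e and Sema6d. It begins at base -148 in Epha8, +23 in Sema3e and -23 in Sema6d, counted from the start, and is in capitals in the windows below. The Ntng1 window held no match to any motif searched.
Epha8, chr4:136956767-136957066, minus strand: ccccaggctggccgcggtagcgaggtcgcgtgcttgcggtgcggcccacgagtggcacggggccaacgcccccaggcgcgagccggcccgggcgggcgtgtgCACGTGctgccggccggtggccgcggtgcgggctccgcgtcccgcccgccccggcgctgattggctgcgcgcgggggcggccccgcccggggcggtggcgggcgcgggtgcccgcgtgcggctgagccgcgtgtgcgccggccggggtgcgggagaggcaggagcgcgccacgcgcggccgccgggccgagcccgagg
Sema3e, chr5:14025026-14025325, plus strand: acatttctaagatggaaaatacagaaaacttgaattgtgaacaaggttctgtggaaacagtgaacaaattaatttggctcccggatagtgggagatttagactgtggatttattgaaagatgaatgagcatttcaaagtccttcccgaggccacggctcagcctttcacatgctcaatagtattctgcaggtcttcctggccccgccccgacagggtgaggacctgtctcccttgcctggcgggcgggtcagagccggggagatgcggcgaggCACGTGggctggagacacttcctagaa
Sema6d, chr2:124089719-124090018, plus strand: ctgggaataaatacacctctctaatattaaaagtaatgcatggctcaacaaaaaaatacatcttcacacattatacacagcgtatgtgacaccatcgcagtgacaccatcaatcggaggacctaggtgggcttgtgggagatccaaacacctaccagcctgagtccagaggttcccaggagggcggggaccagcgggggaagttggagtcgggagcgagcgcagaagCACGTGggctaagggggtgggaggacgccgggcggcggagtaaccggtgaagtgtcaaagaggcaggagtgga
Ntng1, chr3:110143423-110143722, minus strand: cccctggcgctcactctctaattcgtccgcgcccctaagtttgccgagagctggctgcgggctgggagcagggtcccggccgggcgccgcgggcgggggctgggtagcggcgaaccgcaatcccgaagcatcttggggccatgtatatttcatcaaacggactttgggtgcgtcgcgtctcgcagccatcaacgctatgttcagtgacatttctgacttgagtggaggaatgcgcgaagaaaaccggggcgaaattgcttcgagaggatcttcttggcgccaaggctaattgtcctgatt
The E-box occurred in 7.15% of 32817 promoter windows of the same length in the genome. The other motifs were searched on both strands. The nuclear receptor half-site AGGTCA was in 7 of the 53 members and in 16.3% of all windows. The D-box (TTATGTAA or TTACGTAA), the cAMP response element TGACGTCA and the palindromic glucocorticoid response element were in none of the 53, against 1.05%, 1.79% and 0.475% of all windows.

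Levels were compared between members within a region as normalised counts per kb of exon. Epha4, a receptor for both ephrin classes, and Efnb3, a membrane ligand that it binds, were among the highest in every region. In DLS the leaders were Sema7a, a membrane-anchored semaphorin, with 933 counts per kb and Epha4 with 871. In DMS they were Epha4 with 1116 and Efnb3 with 875, and in NAc Epha4 with 724 and Sema6b, a class 6 membrane semaphorin, with 695. The median member had 57.8 counts per kb in DLS against 141 over all genes, 84.7 against 174 in DMS, and 79.0 against 155 in NAc. Slit2, a long-range repellent, was the lowest in DLS with 5.29, and Ephb2, an EphB receptor, was the lowest in DMS with 12.3 and in NAc with 10.4. Among netrin receptors Unc5a led in all 3 regions, among Slits Slit3, among ephrin-A ligands Efna3 and among neuropilins Nrp1.

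A 24 h rhythm was tested in limma by a cosine and a sine term with sex as a covariate. A gene was called rhythmic at a Benjamini-Hochberg adjusted p under 0.05 over all genes of its table. The fold given is the fitted one from trough to peak. In DLS 18 of 58 members were called rhythmic, where 21% of all genes were. In DMS 32 of 62 were called, where 51.3% of all genes were. With the share of mitochondrial ribosomal RNA as a covariate, DMS had 19 of 62 members called, where 28.6% of all genes were. In NAc 5 of 61 were called, where 2.56% of all genes were. The median fold over members was 1.16 in DLS against 1.10 over all genes, 1.20 against 1.16 in DMS, 1.13 against 1.10 in DMS with the covariate, and 1.15 against 1.11 in NAc. These are bulk punches, so fewer cells of a type and less RNA per cell cannot be told apart.

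The covariate in DMS is the percentage of a library's normalised counts from mt-Rnr1 and mt-Rnr2, the mitochondrial rRNA genes. It ran from 19% to 52.6% in DMS, and its values fell in a high class of 33 libraries (35.3% to 52.6%) and a low class of 37 (19% to 29.9%). The high class held 3, 4, 7, 7, 10 and 2 libraries at ZT2, ZT6, ZT10, ZT14, ZT18 and ZT22, so the class and the time of day moved together. DMS results are therefore read from the fit with the share, and values without it are given where the call or the fold differs most. The median share was 41.6% in DLS, 27.8% in DMS and 35% in NAc.

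In all, 4 members were called rhythmic in all 3 regions, counting DMS with the covariate: Ntng1, Efnb3, Unc5b and Sema5b. Another 8 were called in DLS and DMS: Efna3, Epha8, Nrp1, Plxna2, Plxnc1, Sema3e, Sema4c and Sema6d. A further 14 were called in 1 region, and 36 in none. No member was called in NAc and DMS without DLS. The share of all genes called in the same sets of regions is not given here. The overlap is therefore not read as particular to these members.

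**Figure D1:**
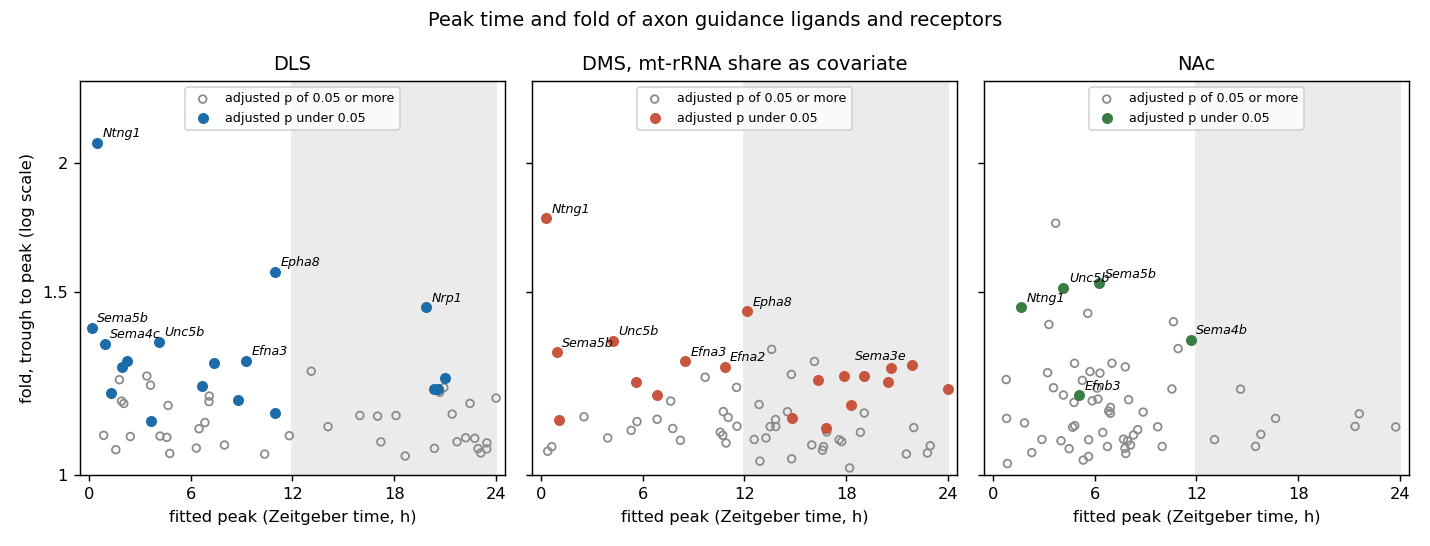
Fitted peak time (h) against fitted fold from trough to peak (log axis) for each measured member, in DLS, in DMS with the mt-rRNA share as covariate, and in NAc; filled points have an adjusted p under 0.05 and the larger ones are named, and grey marks the dark phase. Ntng1 stands at 2.09-fold in DLS and 1.77-fold in DMS, and the 5 called members of NAc all peak in the light.

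Ntng1 encodes netrin-G1, which is anchored to the axon surface and binds NGL-1, the product of Lrrc4c. The gene lies on chromosome 3. Its log2 normalised count in DLS ran from 8.23 to 8.95 at ZT2 (median 8.63, n = 11) and from 7.04 to 8.07 at ZT14 (median 7.58, n = 12). Every ZT2 library of DLS lay above every ZT14 library. Here and below, the times compared are those of highest and lowest median of the gene in that region, picked from these same values. How often such times separate over all genes is not given here. The medians at ZT6, ZT10, ZT18 and ZT22 were 8.26, 7.86, 8.15 and 8.59, a single trough early in the dark.

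In DMS Ntng1 ran from 8.84 to 9.51 at ZT2 (median 9.28, n = 12) and from 8.14 to 8.75 at ZT14 (median 8.42, n = 11), again with no overlap. In NAc the values spread more: 7.34 to 9.08 at ZT22 (median 8.85, n = 14) and 6.85 to 8.93 at ZT14 (median 7.93, n = 13). Only 4 of the 14 ZT22 libraries of NAc lay above every ZT14 library. The amplitude, the height of the fitted peak above the mean, was 0.53 ± 0.05 (SE) in DLS, 0.41 ± 0.04 in DMS with the covariate and 0.27 ± 0.07 in NAc. The adjusted p values from limma were 2.64e-12, 8.83e-11 and 0.0456. The fitted peak came at 0.508 h in DLS, 0.292 h in DMS and 1.65 h in NAc, just after lights on. After sex was taken out, the cosine accounted for 60.4% of the variance of Ntng1 in DLS, 65.4% in DMS without the covariate and 16.4% in NAc.

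**Figure D2:**
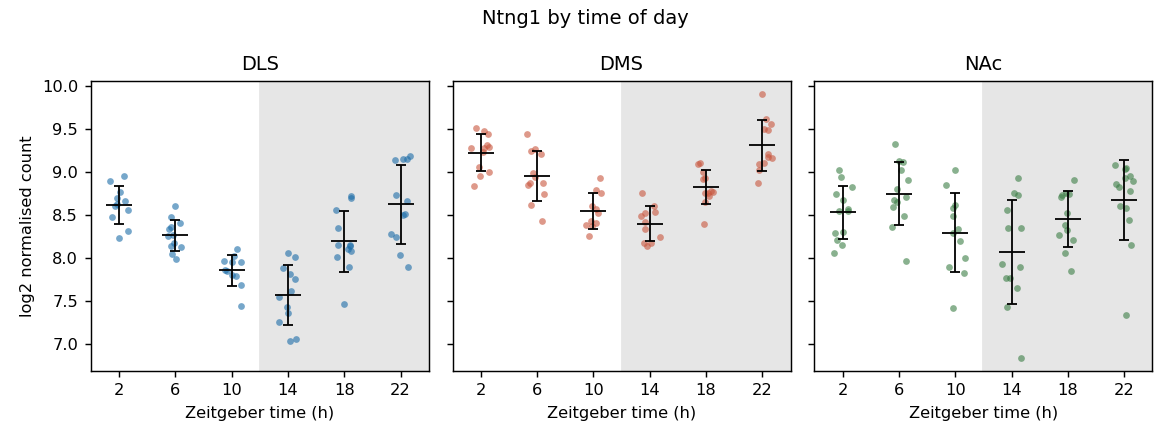
Log2 normalised count of Ntng1 in every library by Zeitgeber time (h), in DLS, DMS and NAc; points are libraries, black bars the mean ± SD, and grey the dark phase. Levels are lowest at ZT14 in each region, with no overlap between ZT2 and ZT14 in DLS and DMS.

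Ntng1 was carried by a median of 292 reads per library in DLS and 479 in DMS. In DMS the rhythm was seen within both classes of the mt-rRNA share, with a fold of 1.83 in the high class (adjusted p = 8.56e-06, limma) and 1.66 in the low class (adjusted p = 0.0208, limma). The share stayed in both of these fits as a covariate. The Ntng1 rhythm was also seen within both ranges of animal numbers in DLS. There the fold was 2.17 in the 31 libraries of animals numbered up to 30 and 2.00 in the 39 numbered 31 or more. In NAc the folds were 1.59 in 48 libraries (adjusted p = 0.0482, limma) and 1.23 in 29 (adjusted p = 0.831, limma), so the NAc call rested on the first range. Its partner Lrrc4c had a fold of 1.07 in DLS (adjusted p = 0.121, limma), 1.11 in DMS with the covariate (adjusted p = 0.00145, limma) and 1.14 in NAc (adjusted p = 0.140, limma).

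Among the other membrane-bound ligands, Efnb3 and Efna3 peaked in the light. Efnb3 encodes ephrin-B3, a transmembrane ligand of EphB receptors and Epha4. In DLS it ran from 10.81 to 11.16 at ZT6 (median 11.04, n = 12) and from 10.47 to 11.10 at ZT18 (median 10.69, n = 12), and 10 of the 12 ZT18 libraries lay below every ZT6 library. In DMS it ran from 11.38 to 11.76 at ZT6 (median 11.62) and from 11.11 to 11.33 at ZT18 (median 11.20), with no overlap between the 12 libraries at each time. In NAc the ranges overlapped, with medians of 11.09 at ZT6 and 10.76 at ZT18. The fold was 1.22 in DLS, 1.23 in DMS with the covariate and 1.19 in NAc, with peaks at 6.68, 5.62 and 5.09 h and adjusted p values of 2.62e-05, 2.31e-07 and 0.0324 (limma).

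Efna3, a lipid-anchored ephrin-A, was highest at ZT10. In DLS its values at ZT10 (8.94 to 9.42, median 9.16, n = 11) all lay above those at ZT2 (8.29 to 8.90, median 8.69, n = 11). In DMS its values at ZT10 (9.31 to 9.68, median 9.42, n = 11) all lay above those at ZT18 (8.74 to 9.20, median 8.92, n = 12). The fold was 1.29 in both regions, with peaks at 9.25 h in DLS and 8.50 h in DMS (adjusted p = 0.000128 and 1.43e-05, limma). In NAc the fold was 1.18 and the adjusted p from limma 0.169. Efna2, another ephrin-A, passed in DMS with the covariate alone (1.27-fold, peak at 10.8 h, adjusted p = 0.0109, limma). Its highest median in DMS was 7.48 at ZT22, away from the fitted peak, followed by 7.33 at ZT10, and the lowest was 6.91 at ZT18. Its values overlapped between these times.

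Of the 12 membrane semaphorins, 5 were called in DLS, 4 in DMS with the covariate and 2 in NAc. Over all genes the called shares were 21%, 28.6% and 2.56%, so the count in DMS lay near that of all genes. All of these membrane semaphorin calls had a peak in the light except Sema4c in DMS, which peaked at 24 h. Sema5b, which carries thrombospondin repeats, had 8.10 to 9.06 at ZT2 (median 8.49, n = 11) and 7.57 to 8.51 at ZT14 (median 8.06, n = 12) in DLS. In DMS it had 8.27 to 9.63 at ZT22 (median 9.17, n = 12) and 7.51 to 9.04 at ZT14 (median 8.32, n = 11). In NAc it had 7.96 to 9.66 at ZT6 (median 8.90, n = 13) and 7.70 to 8.79 at ZT14 (median 8.27, n = 13). The ranges overlapped in all 3 regions. The fold was 1.39 in DLS with a peak at 0.169 h, 1.31 in DMS with the covariate and a peak at 0.950 h, and 1.53 in NAc with a peak at 6.27 h. Adjusted p values were 0.000973, 0.000879 and 0.0220 (limma).

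Sema4c, a plexin-B2 ligand, was called in DLS (1.34-fold, peak at 0.950 h, adjusted p = 0.000437, limma) and in DMS with the covariate (1.21-fold, peak at 24 h, adjusted p = 0.0101, limma). In DLS it ran from 7.58 to 8.36 at ZT22 (median 7.90) and from 6.83 to 7.72 at ZT14 (median 7.41), and 10 of the 12 ZT22 libraries lay above every ZT14 library. Sema6d, a plexin-A1 ligand whose start region held an E-box, was called in the same 2 regions with folds of 1.20 and 1.13 and peaks at 1.30 and 1.07 h. Sema4a was called in DMS only, with the covariate (1.19-fold, peak at 6.83 h) and without it (1.24-fold, peak at 5.21 h).

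Sema4b, another class 4 semaphorin, was called in NAc alone. It had 8.16 to 9.20 at ZT10 (median 8.89, n = 12) and 7.25 to 8.90 at ZT22 (median 8.40, n = 14) there, and a fold of 1.35 with a peak at 11.7 h (adjusted p = 0.0273, limma). In DLS its medians stayed between 8.10 and 8.27 at all times. The test of the difference of its rhythm between regions did not pass.

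Sema7a, which acts through Plxnc1 and integrins, was called in DLS alone. It ran from 11.31 to 11.84 at ZT6 (median 11.71, n = 12) and from 11.18 to 11.73 at ZT14 (median 11.34, n = 12), with overlap, and had a fold of 1.29 with a peak at 2.24 h (adjusted p = 3.99e-06, limma). Its receptor Plxnc1 was called in DLS too, with a fold of 1.24 and a peak at 21 h (adjusted p = 0.0322, limma). Sema6b had a fold of 1.18 and a peak at 8.80 h in DLS (adjusted p = 2.21e-05, limma). In DMS it was called without the covariate (1.10-fold, adjusted p = 0.0417, limma) and not with it (1.08-fold, adjusted p = 0.119, limma).

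**Figure D3:**
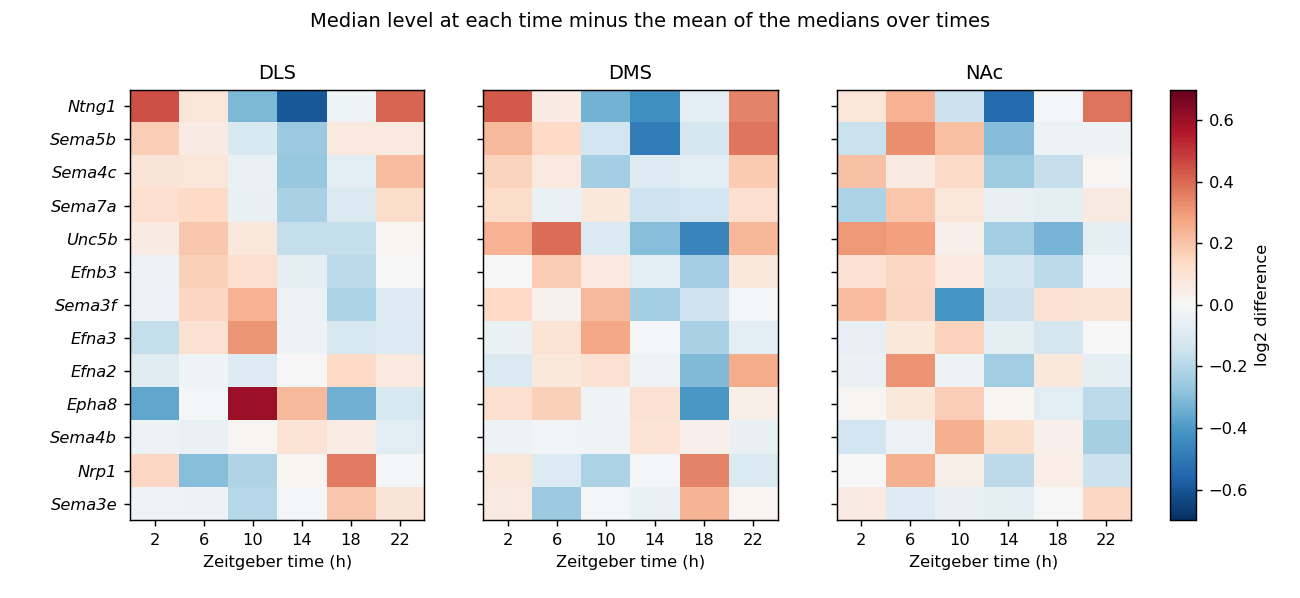
Median log2 normalised count at each Zeitgeber time (h) minus the mean of the 6 medians, for the 12 called members of largest amplitude and Efnb3, in DLS, DMS and NAc; red is above and blue below that mean. Ntng1 is low at ZT14 in all 3 regions, and Epha8 is high at ZT10 in DLS.

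Of the 6 secreted class 3 semaphorins measured, Sema3e, Sema3f and Sema3a were called in DLS, and Sema3e also in DMS with the covariate. Over all genes 21% were called in DLS and 28.6% in DMS with the covariate. Sema3e signals directly to Plxnd1. In DLS it ran from 10.89 to 11.34 at ZT18 (median 11.17, n = 12) and from 10.44 to 10.97 at ZT10 (median 10.78, n = 11), and 11 of the 12 ZT18 libraries lay above every ZT10 library. Its fold was 1.21 in DLS with a peak at 20.6 h, and 1.28 in DMS with the covariate and a peak at 21.9 h (adjusted p = 0.000327 and 0.000229, limma). Plxnd1 was not called in DLS (1.19-fold, adjusted p = 0.0754, limma) or in DMS with the covariate (1.11-fold, adjusted p = 0.184, limma), but was in DMS without it (1.31-fold, adjusted p = 0.0341, limma).

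Sema3f, a neuropilin-2 ligand, had medians of 8.17 at ZT10 and 7.71 at ZT18 in DLS, with overlap, and a fold of 1.28 with a peak at 7.38 h (adjusted p = 0.0201, limma). Sema3a, the classic growth cone collapsing ligand of neuropilin-1, was at 1.15-fold with a peak at 11 h (adjusted p = 0.0445, limma). Both were also called in DMS without the covariate, at 1.22-fold and 1.14-fold. Ntn4, a laminin-like netrin, was called in DLS alone (1.27-fold, peak at 1.95 h, adjusted p = 0.0474, limma), and Ntn1 was not called in DLS, in DMS with the covariate or in NAc. Without the covariate Ntn1 was called in DMS (1.32-fold, adjusted p = 0.00336, limma). Of the Slits, Slit3 was called in DMS with the covariate (1.17-fold, peak at 18.3 h, adjusted p = 0.0298, limma). None of the 3 measured Robos was called in DLS, in DMS with the covariate or in NAc, and Robo2 was called in DMS without it (1.18-fold, adjusted p = 0.0298, limma). Over all genes 21% were called in DLS, 28.6% in DMS with the covariate, 2.56% in NAc and 51.3% in DMS without the covariate.

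Unc5b, a netrin receptor of neurons and of vessels, was called in all 3 regions with a peak close to 4 h after lights on. In DLS it ran from 9.15 to 9.82 at ZT6 (median 9.43, n = 12) and from 8.76 to 9.32 at ZT18 (median 9.07, n = 12). In DMS it ran from 9.58 to 10.66 at ZT6 (median 10.29, n = 12) and from 9.20 to 10.01 at ZT18 (median 9.44, n = 12). In NAc it ran from 8.59 to 9.50 at ZT2 (median 9.16, n = 13) and from 8.26 to 9.33 at ZT18 (median 8.53, n = 12). Ranges overlapped in each region. The fold was 1.34 in DLS, 1.35 in DMS with the covariate and 1.52 in NAc, with peaks at 4.11, 4.26 and 4.16 h and adjusted p values of 0.000255, 2.95e-05 and 0.00960 (limma). Without the covariate the DMS fold was 1.68.

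Unc5b binds the adhesion protein Flrt3 as well as netrin. Flrt3 was rhythmic in DLS with a fold of 1.29 and a peak at 14.6 h (adjusted p = 1.9e-05, limma), in the dark, when Unc5b was low. In DMS with the covariate Flrt3 had a fold of 1.17 and a peak at 16.7 h (adjusted p = 0.00556, limma). Unc5a and Unc5c, further repellent netrin receptors, were called in DMS with the covariate, with folds of 1.13 and 1.23 and peaks at 14.8 and 20.5 h, and Unc5c also without it (1.27-fold). Dcc was not called in DLS, in DMS with the covariate or in NAc.

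Nrp1, the co-receptor of class 3 semaphorins and of vascular growth factor, peaked in the dark. In DLS it ran from 9.15 to 9.86 at ZT18 (median 9.48, n = 12) and from 8.52 to 9.34 at ZT6 (median 8.81, n = 12), and 9 of the 12 ZT18 libraries lay above every ZT6 library. In DMS it ran from 9.36 to 9.99 at ZT18 (median 9.71, n = 12) and from 8.83 to 9.63 at ZT10 (median 9.14, n = 11). In NAc the times did not separate, with medians between 9.12 at ZT14 and 9.55 at ZT6. The fold was 1.45 in DLS (peak at 19.9 h, adjusted p = 5.68e-07, limma), 1.24 in DMS with the covariate (peak at 19 h, adjusted p = 0.00831, limma) and 1.11 in NAc (adjusted p = 0.782, limma). Within the ranges of animal numbers the DLS fold was 1.36 in animals up to 30 and 1.49 from 31, both called.

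The plexins called in DLS and in DMS with the covariate also peaked in the dark. Plxna2, a receptor of class 6 and, with neuropilins, class 3 semaphorins, had a fold of 1.21 and a peak at 20.3 h in DLS, and 1.25 and 17.9 h in DMS with the covariate. Plxnc1 peaked at 21 h in DLS and 20.6 h in DMS. Plxna4 was called in DMS with the covariate alone (1.24-fold, peak at 16.3 h). The other 6 plexins of DLS and 6 of DMS did not pass in these fits, where 21% and 28.6% of all genes were called.

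Markers of some cell types varied with the time of day in these libraries, and no astrocyte marker was called in DLS, DMS with the covariate or NAc. Of 6 endothelial markers listed, 5 were called rhythmic in DLS, 4 in DMS with the covariate and 3 in NAc, and none was at 0. Cldn5, the tight junction gene, had folds of 1.63 in DLS, 1.76 in DMS with the covariate and 1.83 in NAc, with peaks at 23, 23.7 and 22.4 h. The called endothelial markers did not all peak together: 3 peaked in the dark and 2 in the light in DLS. In DMS with the covariate 2 peaked in the dark and 2 in the light, and in NAc all 3 in the dark. The median fold over the 6 markers was 1.26 in DLS, 1.17 in DMS with the covariate and 1.31 in NAc. The log2 of the summed markers had medians by time between 12.24 and 12.40 in DLS, 12.53 and 12.65 in DMS, and 11.89 and 12.15 in NAc. Of 8 medium spiny neuron markers 6 were called in DLS, 7 in DMS with the covariate and 0 in NAc, and of 6 oligodendrocyte markers 1, 3 and 0. In the same order, 0, 0 and 0 of 6 astrocyte markers and 1, 1 and 0 of 6 microglia markers were called. Of 4 thalamic neuron markers measured, 0, 1 and 0 were called, and of 4 oligodendrocyte precursor markers 1, 1 and 0. Mural and fibroblast markers gave 1 of 4, 0 of 4 and 1 of 3 measured. Over all genes 21%, 28.6% and 2.56% were called.

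The summed markers of cortical excitatory neurons and of the ventricle lining varied most. In NAc the cortical sum had a median of 9.82 at ZT2 and 12.27 at ZT14 on the log2 scale, and 0 of its 4 measured markers passed the rhythm test. Neurod6 and Neurod2 of that list were not measured in any region, and Tbr1 was also not measured in DMS. In DMS the ventricle and choroid plexus sum had medians between 8.45 at ZT22 and 10.68 at ZT2, with single libraries from 6.11 to 16.14, and 0 of its 3 measured markers passed.

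Each sum was put in the fit as a covariate, a choice made after seeing the data. With the cortical sum 4 of 61 members were called in NAc, where 2.43% of all genes were, and Ntng1 was lost there (1.39-fold, adjusted p = 0.112, limma). With the endothelial sum 19 of 58 were called in DLS, 20 of 62 in DMS with the share and 5 of 61 in NAc, where 17.2%, 27.5% and 5.29% of all genes were. Nrp1 was called in DLS (1.38-fold) and DMS (1.24-fold) with the endothelial sum, and Unc5b in DLS (1.34-fold), DMS (1.35-fold) and NAc (1.55-fold). The calls lost with it were Ntn4, Plxna2, Plxnc1 and Sema3a in DLS, and Slit3 and Sema4a in DMS with the share. With the ventricle sum 19 of 62 were called in DMS with the share, where 28.9% of all genes were, and Sema4a was lost there too (adjusted p = 0.0526, limma).

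Of the 10 Eph receptors measured in DLS 2 were called, Epha8 and Epha4, a share close to the 21% of all genes. Of the 12 in DMS with the covariate 2 were called, Epha8 and Epha7, where 28.6% of all genes were. None was called in NAc, where 2.56% of all genes were. Epha8, an ephrin-A receptor, ran from 6.67 to 7.82 at ZT10 (median 7.37, n = 11) and from 5.94 to 6.74 at ZT2 (median 6.40, n = 11) in DLS, and 10 of the 11 libraries at ZT10 lay above all at ZT2. Its fold was 1.57 with a peak at 11 h (adjusted p = 0.00107, limma), at a median of 106 reads per library. Epha4 had a fold of 1.13 and a peak at 3.68 h in DLS (adjusted p = 0.0110, limma), and Epha7 1.11 and 16.8 h in DMS (adjusted p = 0.0253, limma).

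In DMS Epha8 was called with the mt-rRNA share in the fit and not without it. Its level was 8.08 ± 0.37 (SD, n = 33) in libraries of the high class and 8.84 ± 0.25 (SD, n = 37) in those of the low class. Without the covariate its fold was 1.19 (adjusted p = 0.352, limma), and with it 1.44 with a peak at 12.1 h (adjusted p = 5.48e-05, limma). Within the high class alone the fold was 1.45 and the peak 12.1 h (adjusted p = 0.0429, limma), and within the low class alone 1.45 and 12.0 h (adjusted p = 0.0410, limma). Both of these fits still held the share as a covariate, so they do not show the rhythm without it. In NAc Epha8 had a fold of 1.27 (adjusted p = 0.434, limma).

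The covariate changed which members were called in DMS: 14 were called with and without it, 18 without it alone, and 5 with it alone. The 5 were Epha8, Epha7, Efna2, Unc5a and Plxna4. The 18 were Efna5, Epha6, Ephb1, Ephb2, Ntn1, Plxnb3, Plxnd1, Robo2, Sema3a, Sema3c, Sema3d, Sema3f, Sema4d, Sema4f, Sema4g, Sema5a, Sema6a and Sema6b. Without the covariate the folds of Plxna2, Plxnc1 and Slit3 were 1.35, 1.40 and 1.36, with peaks at 23, 22.8 and 23.8 h. Unc5b and Sema5b kept their call with a smaller amplitude, 0.22 ± 0.04 and 0.20 ± 0.04 with the covariate against 0.37 ± 0.05 and 0.38 ± 0.05 without. By class, Unc5b was 9.56 ± 0.30 in the high class and 10.2 ± 0.2 in the low class, and Sema5b 8.46 ± 0.31 and 9.07 ± 0.27 (SD, n = 33 and 37). Sema6a, a plexin-A ligand, fell out of the calls, with an amplitude of 0.07 ± 0.04 with the covariate and 0.27 ± 0.07 without. The share cannot be told apart from the time of day where they move together. How the calls of all genes split between the fits with and without the covariate is not given here. The split is therefore not read as particular to these members.

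**Figure D4:**
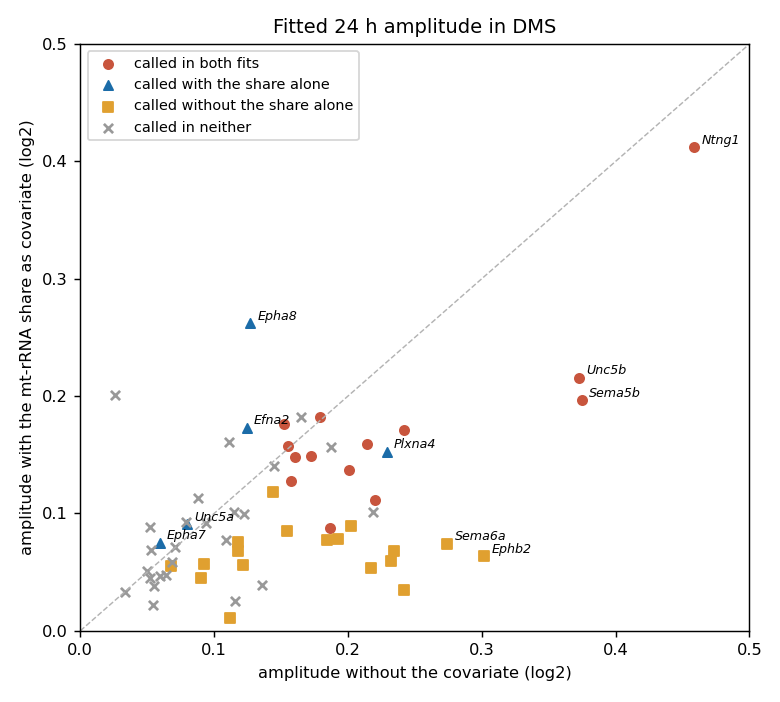
Fitted 24 h amplitude (log2) of the 62 members in DMS without (x axis) and with (y axis) the mt-rRNA share as a covariate; marks show in which fit the adjusted p was under 0.05, and the dashed line marks equal values. Ntng1 stays near the line, Unc5b, Sema5b and Sema6a fall below it, and Epha8 rises above it.

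By role, 12 of 30 ligands and 6 of 28 receptors were called in DLS, where 21% of all genes were. In DMS with the covariate 10 of 31 ligands and 9 of 31 receptors were called, where 28.6% of all genes were. Without it 21 and 11 were, where 51.3% of all genes were. In NAc 4 of 30 ligands and 1 of 31 receptors were called, where 2.56% of all genes were. The receptors' shares lay near those of all genes in DLS and in DMS with the covariate. Of the called ligands 11 of 12 peaked in the light in DLS, 7 of 10 in DMS with the covariate and 4 of 4 in NAc. Of the called receptors 3 of 6 peaked in the light in DLS, 1 of 9 in DMS with the covariate (6 of 11 without it) and 1 of 1 in NAc. Over all members called, 4 peaked in the dark and 14 in the light in DLS, where 10.9% of all genes were called with a dark peak and 10.1% with a light peak. In DMS with the covariate 11 peaked in the dark and 8 in the light, where 15.4% and 13.2% of all genes did. In DMS without the covariate 11 peaked in the dark and 21 in the light, where 25.9% and 25.4% of all genes did. In NAc 0 peaked in the dark and 5 in the light, where 1.46% and 1.10% of all genes did.

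The counts of this split changed with the scaling of libraries. When each library was scaled to an equal sum, the split in DMS with the covariate was 7 dark and 14 light, and without it 2 dark and 48 light. That scaling moved all genes of DMS together, by an amplitude of 0.18 (log2) peaking at 2.18 h. In DLS it gave 1 dark and 2 light, and 4 dark and 13 light without the library of male 13 at ZT6. When libraries were scaled outside the rRNA and the 3 most abundant genes, the split in DLS was 5 dark and 9 light. The dark and light shares of all genes under these scalings are not given here. The change is therefore not read as particular to these members. No called member of DLS had its peak between 12 and 18 h, early in the dark, where 23.5% of all called genes of DLS had theirs.

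Of the 36 members called in none of the 3 fits, those of largest amplitude were Ephb4 and Plxna1 in DLS, Slit2 and Unc5d in DMS with the covariate, and Ephb2 and Sema3g in NAc. Their folds were 1.26 and 1.25, 1.32 and 1.29, and 1.75 and 1.43. Ephb2 in NAc, the largest of these, had an SD of 0.92 over libraries on the log2 scale and an adjusted p of 0.208 (limma).

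Among 92 other guidance genes (co-receptors, NGL and FLRT proteins, effectors and other cues), 18 of 84 measured were called in DLS, 28 of 85 in DMS with the covariate and 1 of 87 in NAc, where 21%, 28.6% and 2.56% of all genes were. The gene called in NAc was Cxcl12, a chemokine that guides cells and axons, with a fold of 1.28 and a peak at 20.4 h (adjusted p = 0.0433, limma). It was called in DLS too (1.26-fold, peak at 21.4 h, adjusted p = 0.000196, limma). Nrcam, an adhesion co-receptor, had a fold of 1.17 in DLS, and Tiam1, a Rac activator downstream of ephrins, 1.26 in DLS and 1.25 in DMS with the covariate. In DMS the smallest p values were those of Usp33, a Robo-binding enzyme (1.17-fold), and Dpysl2, the collapsin response mediator CRMP2 (1.13-fold), with Bmp7 the largest in size at 1.60-fold.

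Whether a rhythm differs between regions was tested for the 58 shared members in 1 limma fit of all 11283 genes in the 3 tables. The tables were normalised separately, so it compares changes within a table, not levels. In NAc no step of whole reads was found: a median of 2.03% of values lay within the tolerance of one, against 100% in DLS and DMS. Whether this bears on comparisons with NAc was not tested. DLS against NAc gave 2 of 58 members, Nrp1 and Sema5b, where 0.257% of all genes were called. Nrp1 had a dark peak and a 1.45-fold rhythm in DLS, against 1.11-fold in NAc (adjusted p of the difference 0.0145, limma). Sema5b peaked at 0.169 h in DLS, against 6.27 h in NAc (adjusted p of the difference 0.0273, limma). With the animal as a block the adjusted p values were 0.00895 and 0.0173, with the cortical marker sum by region 0.0133 for both, and with the mt-rRNA share by region 0.0130 and 0.00282, where 0.682% of all genes were called. With time as 6 separate levels they were 0.0650 and 0.225, so that neither passed.

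DLS against DMS and DMS against NAc gave 0 of 58 members in limma, where 0% of all genes were called, with 1 and 9 members at an unadjusted p under 0.05, where 8.7% and 21.6% of all genes were. The smallest adjusted p among members was 0.559 for DLS against DMS and 0.0671, of Sema5b, for DMS against NAc. Ntng1 had its largest fold in DLS, and the difference of its rhythm did not pass the threshold for any pair.

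**Figure D5:**
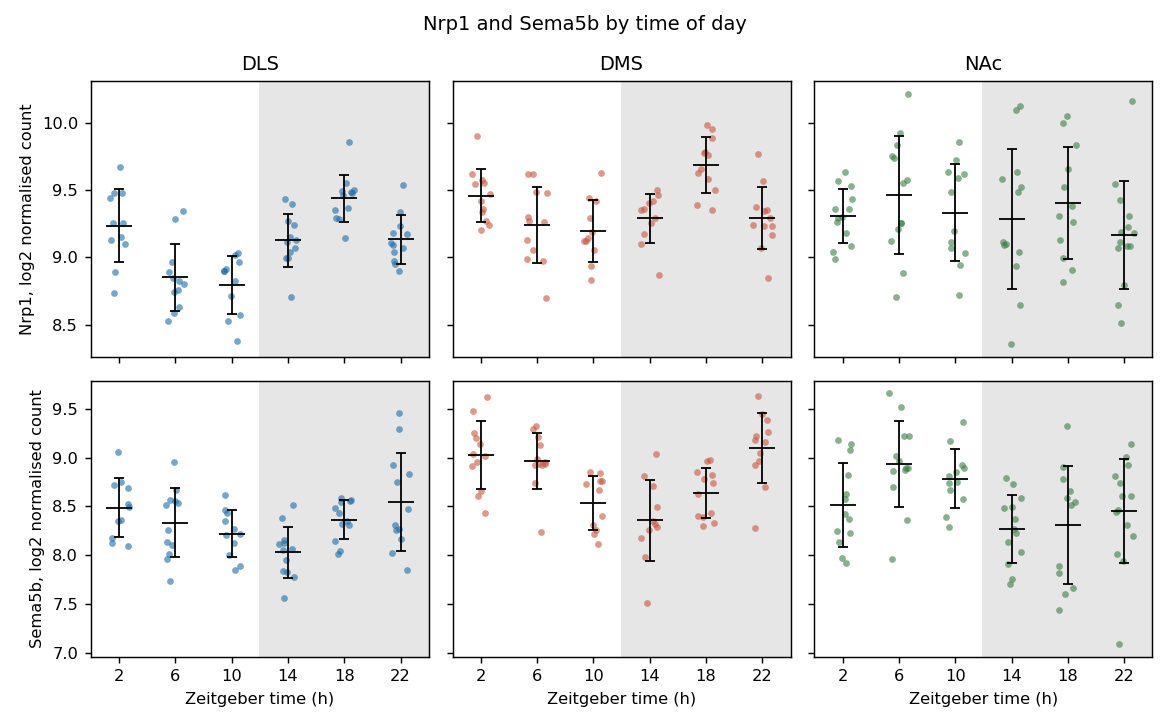
Log2 normalised count of Nrp1 (top) and Sema5b (bottom) in every library by Zeitgeber time (h), in DLS, DMS and NAc; points are libraries, black bars the mean ± SD, and grey the dark phase. Nrp1 is high at ZT18 in DLS and DMS, with no such rise in NAc, and Sema5b is highest at ZT6 in NAc.

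Males and females were compared in each region. The difference of rhythm between the sexes was called for 0 members in DLS, DMS and NAc, where 0% of all genes were, with 13, 4 and 2 members at an unadjusted p under 0.05 (limma), where 11.3%, 3.79% and 4% of all genes were. The male minus female level was called for 0 members in each region too, where 0.202%, 0.909% and 0.0758% of all genes were, with 11, 7 and 2 members at an unadjusted p under 0.05, where 10.2%, 10.8% and 5.27% of all genes were. With the mt-rRNA share as covariate 3 members of NAc were higher in males, where 1.58% of all genes were called higher and 2.78% in either direction: Plxnb1, a class 4 semaphorin receptor, Plxnd1 and Unc5a. Plxnb1 averaged 10.89 in males and 10.64 in females, a difference of 0.31 ± 0.05 (SE) with the share in the fit (adjusted p = 0.000347, limma). In DMS with the share Efnb2, Epha8 and Dcc were higher in males and Sema3e was lower, where 3.71% of all genes were called higher, 4.39% lower and 8.1% in either direction.

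In NAc all 5 calls were lost with time as 6 levels, and when libraries were scaled to an equal sum, where 1.54% and 0.91% of all genes were called. They were also lost when the libraries at ZT14, or those at ZT18, were left out, where 1.1% and 1% of all genes were called. In the 48 libraries of animals numbered up to 30, 3 members were called, and in the 29 numbered 31 or more 0, where 2.01% and 0.27% of all genes were. In DLS 18 calls became 3 when libraries were scaled to an equal sum, and 17 when the library of male 13 at ZT6, with a share of 13.2%, was also left out, where 1.9% and 19.7% of all genes were called. In DLS 4 members were called in the 31 libraries numbered up to 30 and 15 in the 39 numbered 31 or more, where 2.91% and 18.8% of all genes were. In DMS with the covariate 4 members were called in the low class alone and 19 in the high class alone, where 2.59% and 20.5% of all genes were.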

How the data were processed

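Each region has its own table, in which the authors deposited gene counts normalised with DESeq2 on a log2 scale, per the labels. HISAT2 2.1.0 was the aligner and HTSeq 0.10.0 the counter, with FastQC and Trimmomatic also named, per the submitters' processing notes. The notes also name a human build, against the mouse identifiers. The strand setting is not given in the sources used here, so reads of antisense neighbours cannot be told apart. In DLS and DMS all values under 5000 reads were whole reads (tolerance 0.01 reads), which gave 29719087 to 56799764 reads per library in DLS and 35711640 to 57468484 in DMS. In NAc a median of 2.03% lay within that tolerance and 9 values were below 0. No step of whole reads was found there, so reads could not be recovered and depth is unknown. The cause was not tested.

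Identifiers were matched to GENCODE M21 symbols for 11371 of 11394 genes in DLS, 12073 of 12101 in DMS and 11842 of 11867 in NAc. No filter on low values was added. Rhythm was fitted per table in limma 3.58.1 (R 4.3.3) by a 24 h cosine and sine, a sex term and a variance trend, with Benjamini-Hochberg adjustment over all genes. Region differences used 1 fit of the 11283 shared genes without a block. Sex differences of level used time as 6 levels. The fits were tested on simulated data. Tables were handled in pandas 2.3.3 and numpy 2.4.6, under Python 3.11.15, and plots in matplotlib 3.10.9.

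Libraries were grouped by labelled region and time. Each is 1 animal's punch, and the labels name the animal, so regions share animals: all 3 regions came from 47 animals, 2 from 30 and 1 from 16. The block on the animal had an estimated correlation of 0.039. Members and lists were chosen with earlier results of these data known. Named are all members called in DLS, DMS with the share or NAc, the 2 largest others per region, the leading member per family, binding partners, and the 4 other guidance genes of smallest p per region. The 12 called members of largest amplitude have values by time. Efnb3 was added to these after its values were seen. Alternatives changed the scaling, filter, pseudocount (8), rhythm shape, covariates (marker sums after seeing the data), animal-number ranges, times, weights, blocks and, in DLS and DMS, the use of recovered reads (limma-voom, which called 17 members in DLS, 30 in DMS and 18 in DMS with the share). Over all genes limma-voom called 21.4% in DLS, 50.8% in DMS and 28.1% in DMS with the share.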

Additional observations from a re-analysis of the deposited data

Results flagged for a closer look

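Nrp1 and Sema5b differed in rhythm between DLS and NAc. For Nrp1 the adjusted p of the difference was 0.0145 (limma), with a fold of 1.45 in DLS and 1.11 in NAc. For Sema5b it was 0.0273 (limma), with a peak at 0.169 h in DLS and 6.27 h in NAc. In separate fits, both passed with the animal as a block, with the mt-rRNA share by region and with the cortical marker sum by region. Neither passed with time as 6 levels. Within ranges of animal numbers the Nrp1 fold was 1.36 and 1.49 in DLS for animals up to 30 and from 31, and 1.22 and 1.17 in NAc. The Sema5b peak within the same ranges was 23.9 and 0.495 h in DLS, and 5.52 and 8.50 h in NAc. Over NAc libraries Sema5b had a Pearson correlation of -0.56 with the mt-rRNA share (n = 77 libraries, description only), and in DLS -0.33 (n = 70). The part of the share in these differences was not tested beyond the fit with the share by region. No step of whole reads was found in the NAc values, unlike those of DLS, and the part of this was not tested either.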

How the results depend on the processing

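In NAc (5 members called) there were 0 with time as 6 levels, 0 with libraries scaled to an equal sum, 3 with that scaling and the mt-rRNA share, 3 in animals numbered up to 30, 0 in those from 31, and 2, 1, 1, 0, 0 and 3 without ZT2, ZT6, ZT10, ZT14, ZT18 and ZT22. Over all genes of NAc the shares called were, in the same order, 1.54%, 0.91%, 3.22%, 2.01%, 0.27%, 1.99%, 1.1%, 1.27%, 1.1%, 1% and 3.24%, against 2.56% in the main fit. In DMS without the share (32) there were 50 with equal sums, 51 with library weights, 21 with a term for the number range, 15 in animals up to 30, 10 in those from 31, 20 without ZT10 and 21 without ZT14. All genes of DMS moved the same way: 76.9%, 77.2%, 31.2%, 21.1%, 10.2%, 40.8% and 39.8% were called, against 51.3% in the main fit. In DMS with the share (19) there were 4 in the low class alone, where 2.59% of all genes were called. In DLS (18) there were 3 with equal sums, 3 with equal sums and the share, 17 with equal sums without the library of male 13 at ZT6, and 4 in animals up to 30. Over all genes of DLS 1.9%, 2.08%, 19.7% and 2.91% were called, against 21% in the main fit. Equal sums with the share or without that library, and marker sums as covariates, were chosen after seeing the data. For DLS against NAc (2) there were 0 with time as 6 levels, and for DMS against NAc (0) there was 1, Sema5b (adjusted p = 0.0422, limma), with the cortical marker sum by region. Male minus female levels (0) gave 4 in DMS and 3 in NAc with the share, where 8.1% and 2.78% of all genes were called. With a term for the number range in place of the share there were 8 in DMS. The share of all genes called under that term is not given here, so the 8 are not read as particular to these members. With the replicate number as a block there were 16 in DLS, 23 in DMS, 19 in DMS with the share and 5 in NAc. Over all genes 17.9%, 36%, 28.5% and 2.72% were called with that block. The replicate numbers pair no animals. The animal block changed no call between regions.

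Peaks moved by over 6 h for Sema3a (1.14-fold with equal sums and 1.06 in animals from 31), Sema6b (1.24 with equal sums), Plxnd1 (1.23 in animals from 31) and Robo2 (1.08 in animals from 31) in DMS, and for Efna2 (1.10 in the low class alone) in DMS with the share. The cause was not tested. Epha6, Plxnb3, Sema3d, Sema4d, Sema4f, Sema4g and Sema5a, called in DMS without the share alone, were not followed over the alternatives in this way. Ntng1 was called under 25 of 25 alternatives in DLS, 20 of 20 in DMS with the share and 11 of 23 in NAc, and Nrp1 under 25 of 25 in DLS. Other calls held less often: Sema3a under 8 of 25 and Ntn4 under 9 of 25 in DLS. In DMS with the share Sema4a held under 11 of 20 and Epha7 under 12 of 20. Over all called members and alternatives, calls were kept 347 times and lost 103 times in DLS, and 70 and 45 times in NAc. In DMS with the share they were kept 319 times and lost 60 times, beside the moved peak of Efna2. Equal-sum scaling moved all genes of DMS together by an amplitude of 0.18 (log2) peaking at 2.18 h. The depth of NAc libraries is unknown, which limits what can be said of its low genes.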
